A study of Mus musculus with 6 samples.

Results

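The Notch genes described here are 4 receptors (Notch1, Notch2, Notch3 and Notch4), 3 ligands (Jag1, Jag2 and Dll1) and 3 targets (Hes1, Hey1 and Nrarp). They were chosen by name and make up 10 of the 15973 protein-coding genes in the authors' comparison of the sorted populations, and all 10 passed the filter on low counts that left 12572 genes for testing. The cells were 4T1-T, a sub-clone of the mouse mammary carcinoma line 4T1 that is proficient in vasculogenic mimicry (VM), the formation of perfusable channels by tumor cells themselves. They were held overnight in serum starvation medium with 0.3% BSA, given 10 ug/mL of acetylated low-density lipoprotein (acLDL) carrying Alexa-488 for 4 h, returned to complete medium for 1 h and sorted by fluorescence. The brightest 25% formed the acLDL-high population and the dimmest 25% the acLDL-low population, so that both populations had received the same label and differed in how much of it they held. Each population gave 3 libraries, numbered 1 to 3, from an experiment that was repeated on 3 occasions. The labels give the number and not the occasion, and libraries with the same number are taken here to share an occasion, an inference from the numbers and from how these libraries varied together. Every library came from the same single sub-clone grown in culture.

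Notch receptors are membrane proteins that are switched on by contact with a Jagged or Delta-like ligand on a neighboring cell. ADAM proteases and then gamma-secretase cut the bound receptor, and the freed intracellular domain enters the nucleus, where it joins the DNA-binding protein RBPJ and a Mastermind coactivator at genes such as Hes1, Hey1 and Nrarp. In the mammary gland the pathway is known for its part in luminal cell fate, and in blood vessels for sprouting and arterial identity.

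Libraries held between 70263372 and 94216786 counts, of which the compared genes took 98.4% to 98.7%. At this depth 3 counts correspond to 0.0323 to 0.0429 CPM (counts per 1000000 counts of the library, its size scaled by TMM). This limit reflects counting error alone. Epithelial markers summed to 2842 to 4351 CPM in the acLDL-low and 3188 to 4557 CPM in the acLDL-high libraries. Endothelial markers summed to 1.96 to 3.18 CPM and 1.80 to 2.64 CPM, with the most counts over all 6 libraries for Tie1 (668), Esam (176), Pecam1 (134) and Cdh5 (88), and 44 for Vwf, 6 for Tek, 4 for Kdr and 0 for Emcn, Cldn5 and Erg. Macrophage markers summed to 19.2 to 21.6 CPM and 20.1 to 24.4 CPM, nearly all from Cd14 (5089 counts in all), Cd68 (3848) and Mrc1 (1133), with 43 counts for Ptprc, 12 for Csf1r, 6 for Fcgr1, 2 for Lyz2 and 0 for Adgre1. Fibroblast and mural markers summed to 29.1 to 41.1 CPM and 29.8 to 43.4 CPM, nearly all from Pdgfra (17054 counts in all, 28.1 to 42.8 CPM per library), followed by Col1a1 (413), with 45 counts for Dcn, 35 for Col1a2, 16 for Rgs5, 6 for Des, 2 for Pdgfrb and 0 for Lum.

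To ask which Notch genes these tumor cells transcribed, levels were compared per length, as CPM divided by the kilobases of exon (RPKM). The cells held 6 members at clear levels and 4 at low ones. Hes1 had the highest mean over the 6 libraries, at 24.3 RPKM, followed by Jag1 at 12.1, Notch2 at 11.7, Nrarp at 10.8, Notch1 at 7.79 and Dll1 at 6.09 RPKM. Each of these genes overlapped its neighbor in this order in its range over the libraries, so neighbors in the order were not resolved. In every library Hes1, Jag1 and Notch2, which had minima of 12.5, 9.34 and 10.6 RPKM, were above the maximum of Dll1, 8.65 RPKM. Notch4 at 0.454, Jag2 at 0.313, Notch3 at 0.156 and Hey1 at 0.0725 RPKM followed, also with overlapping ranges between neighbors. The lowest library of Dll1, at 3.42 RPKM, lay above the highest library of Notch4, at 0.947 RPKM, and this was the single gap in the order. Of the 4 receptors, Notch1 and Notch2 were thus at the higher levels, and of the 3 member ligands Jag1 and Dll1. Dll4, a ligand outside the member list, had a mean of 6.21 RPKM (range 3.27 to 10.4) that overlapped Dll1.

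Between the populations, 1 of the 10 members had an adjusted p under 0.05, Notch1, which was higher in acLDL-high cells. Of all genes tested, 4.75% passed in either direction and 3.43% passed as higher, while 1.32% passed as lower, a direction in which 0 of the 10 members passed. Unadjusted, the p of 4 members was under 0.05 (Notch1, Notch3, Jag1 and Dll1), as it was for 2435 of the 12572 genes tested. The fitted log2 fold change (acLDL-high over acLDL-low) was above 0 for 9 members and for 6356 of the 12572 genes tested. Its median was 0.09 over the members and 0.00 over all genes. Among those 9, the sign of Jag2, Hes1, Hey1 and Nrarp turned in some fits with other settings. Within pairs of libraries with the same number, 4 members kept 1 direction in all 3 pairs, as 40.4% of all genes did. Of these, 3 were higher in acLDL-high cells (20.9% of all genes) and 1 was lower (19.5% of all genes). The 2 populations overlapped in CPM for all 10 members, whereas 2.86% of all genes did not overlap. In sorted bulk populations, more cells of a kind and more RNA per cell cannot be told apart.

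**Figure D1:**
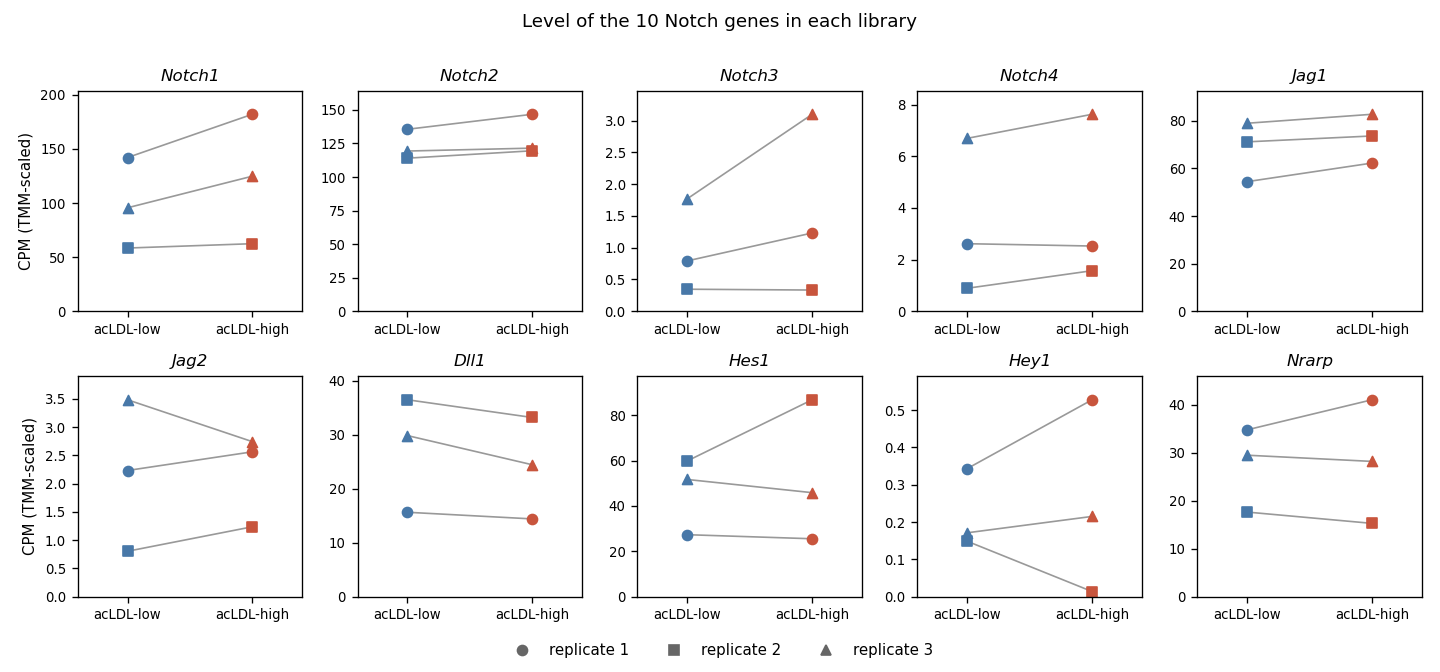
CPM of each Notch gene in the 3 acLDL-low (blue) and 3 acLDL-high (red) libraries, on linear axes that start at 0, with a line joining the libraries of the same replicate number. The Notch1, Notch2 and Jag1 lines all slope up and the Dll1 lines all slope down, and in every panel the levels of the 2 populations overlap.

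Among the receptors, Notch1 (ENSMUSG00000026923, chr2:26457903-26516663 of GRCm38, minus strand) is a receptor with known roles in mammary tumors and in vessel sprouting. It was at 142, 58.4 and 95.6 CPM in acLDL-low libraries 1, 2 and 3 and at 182, 62.4 and 125 CPM in acLDL-high libraries 1, 2 and 3. Each acLDL-high library was above its acLDL-low partner, yet acLDL-high library 2 was below acLDL-low libraries 1 and 3, so that the populations overlapped. The means were 98.7 ± 41.9 CPM in acLDL-low and 123 ± 59.8 CPM in acLDL-high cells (SD, n = 3). The log2 fold change was 0.28 (SE 0.05, 95% interval 0.17 to 0.40), or 1.22-fold, with an adjusted p of 0.0105 (Benjamini-Hochberg, quasi-likelihood F test of edgeR). The pair differences were 0.36, 0.10 and 0.38 on the log2 scale, the smallest in pair 2, where Notch1 itself was lowest. The call was lost without replicate 3, where the log2 fold change was 0.23 and edgeR's adjusted p 0.160. It was also lost in edgeR when the block was dropped, at a log2 fold change of 0.32 and an adjusted p of 1.

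Genes of the G2 and M phases moved with the population as well. Of 15 such genes, 11 passed the same test as higher in acLDL-high cells, and their summed level was 2543 to 3118 CPM in acLDL-low and 3184 to 4012 CPM in acLDL-high libraries. Of the 12 S phase genes 0 passed as higher and 1 as lower. The shares over all genes tested were 3.43% higher and 1.32% lower. Among the epithelial markers 2 of 6 passed as higher, Cldn4 and Cldn7, and among the macrophage markers Cd14, 1 of 4 tested. Of those 4, 3 had fitted log2 fold changes above 0, while Cd68 had -0.28 (SE 0.11, edgeR adjusted p = 0.201). Among the endothelial markers 0 of 4 tested passed, and 2 had fitted log2 fold changes above 0, with a median of -0.19. Of the fibroblast and mural markers, 0 of 2 tested passed. The part of all these genes in the Notch1 difference was not tested.

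Notch2 (ENSMUSG00000027878, chr3:98013527-98150361, plus strand), a second broadly expressed receptor, was at 136, 114 and 119 CPM in acLDL-low and 147, 120 and 122 CPM in acLDL-high libraries 1, 2 and 3. It varied the least of the 10 between libraries, and acLDL-high was the higher library in each pair by a small margin. Its fitted log2 fold change was 0.07 (SE 0.04, 95% interval -0.02 to 0.16, edgeR adjusted p = 0.394). A fold as large as that fitted for Notch1 lies outside this interval, but the difference between the receptors was not tested.

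Notch3 (ENSMUSG00000038146, chr17:32120820-32166852, minus strand), known for its role in vascular smooth muscle and pericytes, was at 0.793, 0.347 and 1.77 CPM in acLDL-low and 1.23, 0.334 and 3.10 CPM in acLDL-high libraries. These levels rested on 60, 28 and 124 counts and on 98, 24 and 288 counts. Pairs 1 and 3 were higher in acLDL-high cells and pair 2, the one with the fewest counts, was nearly level. The log2 fold change of 0.60 was the largest among the members, with an SE of 0.21, a 95% interval of 0.16 to 1.05 and an edgeR adjusted p of 0.128. Leaving out replicate 1, 2 or 3 gave log2 fold changes of 0.59, 0.74 and 0.39, with edgeR adjusted p of 0.232, 0.0116 and 0.677.

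Notch4 (ENSMUSG00000015468, chr17:34564268-34588503, plus strand), best known as an endothelial receptor, was at 2.62, 0.891 and 6.70 CPM in acLDL-low and 2.53, 1.57 and 7.63 CPM in acLDL-high libraries. Both libraries of replicate 3 stood well above the other 4, whichever population they came from. Fitted over the 3 pairs, the log2 fold change was 0.24 (SE 0.14, 95% interval -0.07 to 0.56, edgeR adjusted p = 0.398), with 2 of 3 pairs higher in acLDL-high cells. It was 0.38 without replicate 1 and 0.09 without replicate 2.

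**Figure D2:**
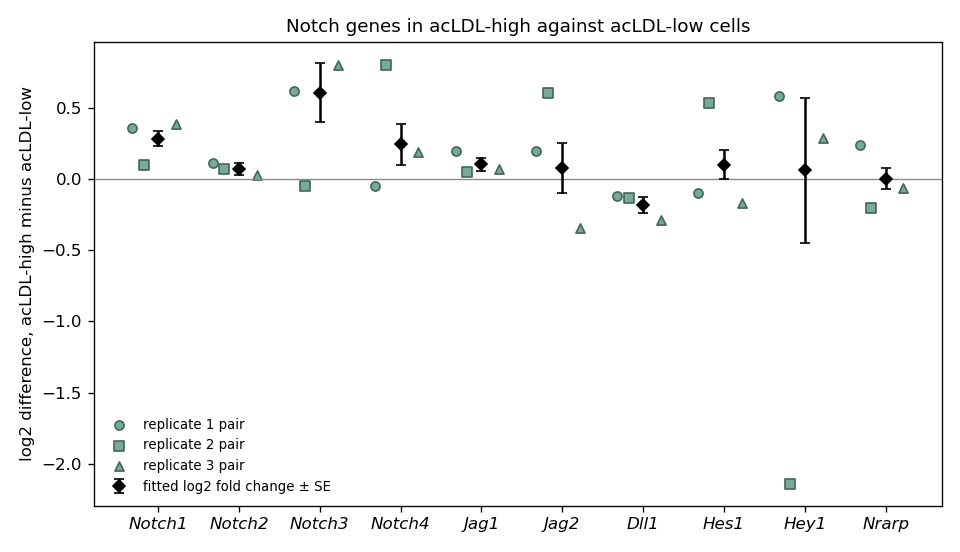
Differences in log2 CPM between acLDL-high and acLDL-low libraries within each pair (green symbols) and the fitted log2 fold change with its standard error (black) for the 10 Notch genes. Notch1 lies above 0 in all 3 pairs with a short error bar, Notch3 has the highest fitted value with a longer bar, and Hey1, with few counts, has the widest.

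Among the ligands, Jag1 (ENSMUSG00000027276, chr2:137081456-137116644, minus strand), the main Jagged ligand of epithelia, was at 54.5, 71.2 and 79.0 CPM in acLDL-low and 62.3, 73.6 and 82.7 CPM in acLDL-high libraries. Each acLDL-high library was slightly above its partner, and both libraries of replicate 1 were below the other 4. The log2 fold change was 0.10 (SE 0.05, 95% interval 0.00 to 0.20), with an edgeR adjusted p of 0.236. It was 0.06 without replicate 1.

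Dll1 (ENSMUSG00000014773, chr17:15367354-15376872, minus strand), a Delta-like ligand known from mammary stem cells, was at 15.6, 36.5 and 29.9 CPM in acLDL-low and 14.4, 33.2 and 24.5 CPM in acLDL-high libraries. It was the 1 member whose acLDL-high library was below its partner in every pair, by log2 differences of -0.12, -0.14 and -0.29. Its fitted log2 fold change was -0.18 (SE 0.06, 95% interval -0.30 to -0.06), and the edgeR adjusted p of 0.0900 did not pass the threshold. Jag1 and Dll1 thus had fitted values of opposite sign, neither of which passed.

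Jag2 (ENSMUSG00000002799, chr12:112907819-112929776, minus strand), the other Jagged ligand, was at 2.23, 0.805 and 3.49 CPM in acLDL-low and 2.56, 1.24 and 2.74 CPM in acLDL-high libraries. Pairs 1 and 2 were higher and pair 3 lower in acLDL-high cells. Fitted over the 3 pairs, the log2 fold change was 0.08 (SE 0.18, 95% interval -0.30 to 0.46, edgeR adjusted p = 0.863), and its sign turned without replicate 2, to -0.09.

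Of the targets, none passed. Hes1 (ENSMUSG00000022528, chr16:30064384-30067796, plus strand), a transcriptional repressor and a classical direct target, was at 27.3, 59.9 and 51.7 CPM in acLDL-low and 25.6, 86.8 and 45.9 CPM in acLDL-high libraries. In pair 2 the acLDL-high library was the higher by 0.54 on the log2 scale, and in pairs 1 and 3 it was the lower, at -0.10 and -0.17. The log2 fold change was 0.10 (SE 0.10, 95% interval -0.12 to 0.32, edgeR adjusted p = 0.645). Without replicate 2 it was -0.14.

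Nrarp (ENSMUSG00000078202, chr2:25180758-25183339, plus strand), an ankyrin repeat protein that feeds back on the Notch complex, was at 34.8, 17.7 and 29.5 CPM in acLDL-low and 41.1, 15.3 and 28.2 CPM in acLDL-high libraries. The pairs differed in sign, with log2 differences of 0.24, -0.21 and -0.06. Its fitted log2 fold change was 0.00 (SE 0.07, 95% interval -0.16 to 0.16, edgeR adjusted p = 0.999), an interval that leaves out a difference as large as the 0.28 fitted for Notch1.

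Hey1 (ENSMUSG00000040289, chr3:8663359-8667256, minus strand), a repressor related to Hes1, was near the limit of detection, with 26, 12 and 12 counts in acLDL-low and 42, 1 and 20 counts in acLDL-high libraries. The single count in acLDL-high library 2 is below that limit of 3 counts. The 95% interval of the log2 fold change, -1.04 to 1.16 around 0.06 (SE 0.51), was the widest of the members (edgeR adjusted p = 0.965). It holds a 2-fold difference in either direction, so such a difference was not excluded.

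For each of the 10 members the span between occasions was larger than the fitted difference between populations. That span is a highest minus a lowest value, a measure unlike a mean difference. The share of all genes for which the same holds was not counted. All 10 members differed between replicate numbers at an adjusted p under 0.05 in edgeR's quasi-likelihood test of the replicate number with the population kept in the fit. Of all genes, 78.0% did, so that passing this test did not set the Notch genes apart. The distance between the highest and the lowest occasion, in mean log2 CPM, had a median of 1.43 over the members, 0.373 over the other genes of the Notch pathway tested and 0.453 over all genes. The scarcer members Notch3, Notch4, Hey1 and Jag2 had the widest spans, and the members were chosen with earlier results of these data known.

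The order of the occasions differed between members. Notch1 had means of 162, 60.4 and 110 CPM over both libraries of replicates 1, 2 and 3 (edgeR adjusted p = 7.03e-09). Nrarp had the same order, with 37.9, 16.5 and 28.9 CPM (edgeR adjusted p = 3.41e-07), so that the receptor and this target were both highest in replicate 1 and lowest in replicate 2. Hes1 had the opposite order, with 26.4, 73.4 and 48.8 CPM (edgeR adjusted p = 1.20e-06), and so did Dll1, with 15.0, 34.8 and 27.2 CPM (edgeR adjusted p = 3.31e-08). The targets Hes1 and Nrarp were therefore at their extremes in opposite replicates. Few orders are possible over 3 occasions, and the share of all genes with each order was not counted. Of 10537 genes compared over the 6 libraries, 746 had a Pearson correlation of log2 CPM above 0.9 with Notch1 and 926 with Nrarp.

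Of the 4 scarcer members, 3 shared another order. Notch3 had means of 1.01, 0.340 and 2.44 CPM in replicates 1, 2 and 3, Notch4 of 2.57, 1.23 and 7.17 CPM and Jag2 of 2.40, 1.02 and 3.11 CPM, each lowest in replicate 2 and highest in replicate 3. Their log2 distances between those replicates were 2.70, 2.57 and 1.61, with edgeR adjusted p of 2.76e-06, 1.44e-07 and 8.50e-05. Jag1 was lowest in replicate 1 and spanned 0.47 on the log2 scale (edgeR adjusted p = 1.95e-05). Notch2 spanned 0.27, the least of the members (edgeR adjusted p = 5.34e-04), and Hey1, the other scarce member, had means of 0.436, 0.0812 and 0.193 CPM, the order of Notch1, and spanned 2.45 on few counts (edgeR adjusted p = 0.0150). Summed S phase genes ranged from 1178 to 2950 CPM over acLDL-low and from 1147 to 2564 CPM over acLDL-high libraries, and all 12 differed between occasions. Their part in the differences of the Notch genes was not tested. An occasion has 1 library of each population, so culture, sorting and library preparation cannot be told apart.

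**Figure D3:**
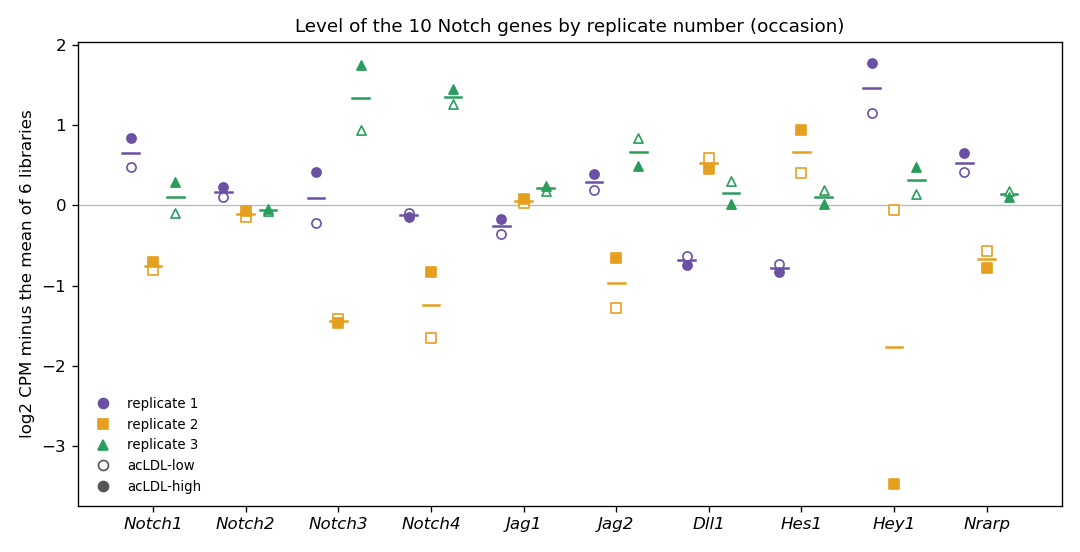
Log2 CPM of each Notch gene in each library minus its mean over the 6 libraries, colored by replicate number, with open symbols for acLDL-low, filled symbols for acLDL-high and a bar at the mean of both. Notch1 and Nrarp are highest in replicate 1 and lowest in replicate 2, Dll1 and Hes1 show the reverse, and Notch3, Notch4 and Jag2 are highest in replicate 3.

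Promoter sequence was examined for the members with an entry in the RefSeq table of promoters (GRCm38.p6, 250 bases before to 50 after each start). It held 9 windows for 8 members, with 2 for Dll1 and none for Hes1 and Hey1. The core RBPJ letters TGGGAA, searched on both strands, were in 0 of the 9 windows and in 25.6% of the 32851 windows of all genes. Repressors of the Hes and Hey families are known to bind E-boxes and N-boxes. The E-box CACGTG was in the window of Nrarp alone among the members and in 7.15% of all windows, and the N-box CACNAG was in 1 or more windows of Notch1, Notch2, Notch3, Dll1 and Nrarp and in 42.5% of all windows, both on either strand. The E-box and N-box do not overlap each other in these windows, both were searched after the result for TGGGAA was known, and a match of letters is not evidence of binding. The 9 windows had a GC content of 55.7% to 86.0%, where the median of all windows was 52.7%, and 5 to 63 CpG, where the median was 7.

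The 250 bases before the start are printed for Notch1, the member that passed the test between populations, and Nrarp, a target that had the same order of occasions. The Notch1 stretch is chr2:26503823-26504072 on the minus strand, which ends at the start of a GENCODE Notch1 transcript and lies within an intron of another that starts further upstream. The Nrarp stretch is chr2:25180508-25180757 on the plus strand, directly before the gene. Sequences read 5′ to 3′ along the gene, and capitals mark the N-box (CACAAG in Notch1, CTAGTG and CTGGTG on the other strand in Nrarp) and the E-box (CACGTG). Another 2 N-box matches of Notch1 cross the start itself and are not in the printed stretch.
Notch1: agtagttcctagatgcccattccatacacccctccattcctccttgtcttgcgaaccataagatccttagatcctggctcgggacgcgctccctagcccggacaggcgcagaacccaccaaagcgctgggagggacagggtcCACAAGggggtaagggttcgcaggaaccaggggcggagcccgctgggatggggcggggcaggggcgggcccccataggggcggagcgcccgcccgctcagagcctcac
Nrarp: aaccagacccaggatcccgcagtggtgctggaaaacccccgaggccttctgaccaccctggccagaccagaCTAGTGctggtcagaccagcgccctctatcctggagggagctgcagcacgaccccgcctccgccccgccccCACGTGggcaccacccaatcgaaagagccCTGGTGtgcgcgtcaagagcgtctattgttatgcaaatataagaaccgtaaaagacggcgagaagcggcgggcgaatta

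To place the members in their pathway, 54 further genes of Notch signaling were listed by role, of which 52 were in the authors' comparison and 49 were tested. Of these 49, 1 passed as higher in acLDL-high cells, Maml2, and 1 as lower, Myc. Over all genes tested 3.43% passed as higher and 1.32% as lower. The median log2 fold change of the 49 was 0.00, as over all genes. Maml2, a Mastermind coactivator of the Notch complex, was at 23.1, 9.07 and 21.2 CPM in acLDL-low and 26.5, 12.3 and 24.1 CPM in acLDL-high libraries. Each acLDL-high library was above its partner, and both libraries of replicate 2 were the lowest, as for Notch1. The log2 fold change of Maml2 was 0.26 (SE 0.07, edgeR adjusted p = 0.0387), and the call was lost without replicate 2 (0.19, adjusted p = 0.109) and without replicate 3, where the fold was larger (0.31, adjusted p = 0.172). Myc, a growth regulator with many inputs besides Notch, was at 458, 567 and 341 CPM in acLDL-low and 351, 437 and 289 CPM in acLDL-high libraries. It fell in every pair, by a fitted log2 fold change of -0.33 (SE 0.05, edgeR adjusted p = 0.00115). Myc, listed as a target, thus moved in the direction opposite to Notch1.

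By role, members included, 1 of 4 receptors passed as higher and 0 as lower, and 0 of 6 ligands tested passed, where 3.43% of all genes passed as higher and 1.32% as lower. Over the 59 pathway genes tested, 2 passed as higher and 1 as lower. Of 6 targets tested, 0 passed as higher and 1 as lower. Nuclear factors had 1 of 16 higher and 0 lower. The counts were 0 of 5 for the glycosyltransferases that modify Notch, 0 of 4 for the ubiquitin ligases that act on ligands, 0 of 10 for the proteases and 0 of 8 for the genes of receptor turnover. Rbpj, which encodes the DNA-binding partner, had a log2 fold change of -0.02 (SE 0.04, 95% interval -0.11 to 0.08, edgeR adjusted p = 0.890). Adam10 and Adam17, which make the first cut, had values of 0.12 (SE 0.04, edgeR adjusted p = 0.144) and 0.16 (SE 0.06, edgeR adjusted p = 0.138). Dll4, the ligand of sprouting endothelium, was at 12.6, 22.1 and 39.9 CPM in acLDL-low and 14.6, 17.4 and 37.1 CPM in acLDL-high libraries, a log2 fold change of -0.09 (SE 0.08, 95% interval -0.27 to 0.09, edgeR adjusted p = 0.608). Spen, a corepressor partner of RBPJ, had populations that did not overlap, at 170 to 179 CPM in acLDL-low and 144 to 167 CPM in acLDL-high libraries, but its log2 fold change of -0.15 (SE 0.04) had an adjusted p of 0.0685 (edgeR). Of the other classical targets, Heyl had 0 counts in all 6 libraries, and Hes5 had 2, Dtx1 14 and Hey2 33 counts in all, too few to test. Dlk1, a non-canonical ligand, also had 0 counts.

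**Figure D4:**
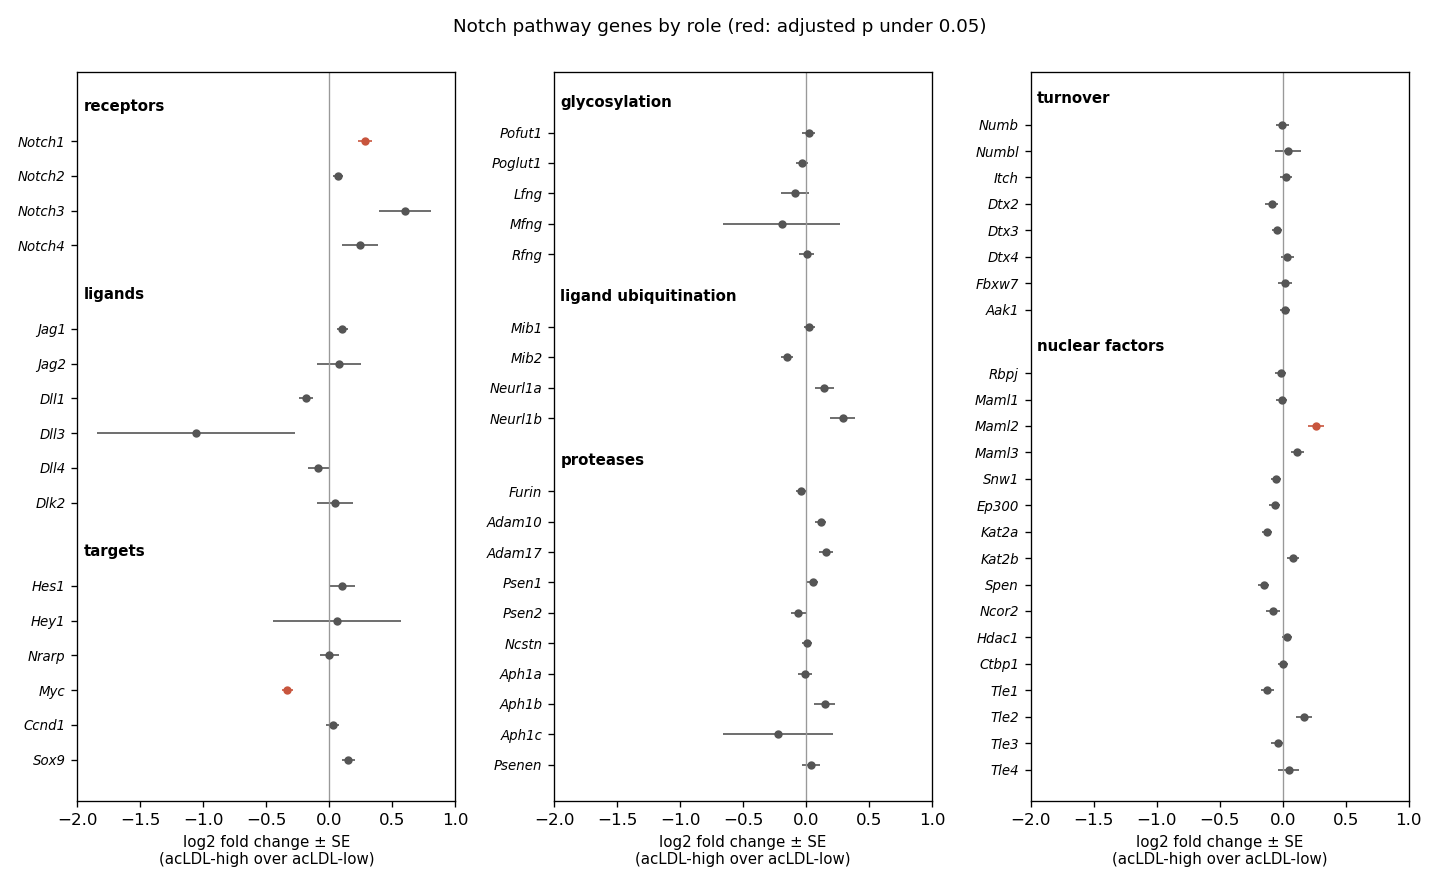
Log2 fold change (acLDL-high over acLDL-low) with its standard error for the 59 Notch pathway genes tested, the members among them, grouped by role. Notch1 and Maml2 to the right and Myc to the left of 0 are the 3 genes in red, with an adjusted p under 0.05.

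As a description of which genes varied like each member, the Pearson correlation of log2 CPM over the 6 libraries was computed against all genes tested that were well expressed (average log2 CPM of at least 1). The closest genes were Ifi202b and Faah for Notch1, with r of 0.998 and 0.994, Ccl20 and Acss2 for Notch2 (0.992 and 0.991), Etv1 and G3bp2 for Notch3 (0.999 and 0.999) and Tmem184a and Serhl for Notch4 (0.995 and 0.994). For the ligands they were Bcr and Itga2 for Jag1 (0.998 and 0.995), Spryd3 and Dsc2 for Jag2 (0.999 and 0.996) and Thoc6 and Fbxo36 for Dll1 (0.999 and 0.997). For the targets they were Mtr and Nbas for Hes1 (both 0.997), Anxa5 and Smim10l1 for Hey1 (both 0.989) and Ribc1 and Slc35e3 for Nrarp (0.996 and 0.995). The 6 libraries fall into 3 pairs that share an occasion, and between 110 and 950 genes exceeded 0.9 for a member, so a high r over so few points was common.

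Exons of 5 members overlap those of other genes, and the strand setting of the counting is not given in the sources used here. For Nrarp, 2051 of 2582 exon bases overlap Gm38287 on the opposite strand, which had 0 to 4 counts per library. Notch1 overlaps 0610009E02Rik (15 to 42 counts) and Gm13568 (0 to 7 counts) on the opposite strand over 1482 of 14232 bases, and Dll1 overlaps A930024N18Rik (20 to 87 counts) over 867 of 4219. Notch3 overlaps Gm17276 (0 counts) over 488 of 8089 bases, and Notch2 overlaps Gm42820 (11 to 47 counts) on the same strand over 541 of 10782.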

How the data were processed

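RNA was measured by stranded polyA RNA-Seq in 6 libraries, 3 per population. The authors aligned reads to mm10 with STAR (2.5.2a), counted them per gene with featureCounts (1.4.3-p1) and deposited raw counts for 53379 gene IDs. Versions are from the submitters' processing notes, and the annotation release is not given in the sources used here. A deposited DESeq2 (1.20.0) table of the authors' own comparison (mean normalized count, fold change, its error, test statistic and p-values) was used for gene IDs and symbols only.

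Counts of the 15973 genes in that table were filtered with filterByExpr, scaled by TMM and fitted with edgeR (4.0.16, R 4.3.3), with population and replicate number as terms, as the study's methods include replicate information. The quasi-likelihood test gave p-values, adjusted by Benjamini-Hochberg over 12572 genes and called at 0.05. Standard errors are absolute log2 fold changes over the square root of F, and pair differences use a prior count of 2. Occasions were compared by the F test of the replicate terms. Libraries with the same number deviated together from their population means (correlations across genes 0.795, 0.846 and 0.799, and -0.557 to -0.0882 for different numbers), and the series' design text states that the experiment was repeated, from which a shared number is inferred to mark an occasion. No library repeated another. With replicate terms in the fit, p-values rest on how far the differences within pairs varied, not on the spread between occasions. All libraries came from 1 sub-clone.

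Positions and exon lengths are from GENCODE M21 (GRCm38, the assembly of mm10), in which 53274 gene IDs were found. Alternatives were no replicate block, DESeq2 size factors, DESeq2 (1.42.0) with and without the block, no low-count filter, a minimum of 10 counts in each library, the whole count table, an adjusted p under 0.01 and leaving out each pair. Leaving out pairs in the comparison of occasions, and the E-box and N-box searches, were added after seeing the data. The fit was also run on counts simulated from its own means and dispersions, which cannot show how well it suits these libraries.

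Named genes are the members, genes of the pathway, marker and cell cycle lists, and the 2 genes most correlated with each member. The members and lists were chosen with earlier results of these data known.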

Additional observations from a re-analysis of the deposited data

How the results depend on the processing

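The replicate block moved the comparison of populations most. Without the block, 0 of 12329 genes passed in edgeR, with 45 at an unadjusted p under 0.05, and 0 members and 0 of the pathway genes. DESeq2 without the block also called 0, 0 and 0, with 71 genes at an unadjusted p under 0.05. With it, edgeR called 597 of 12572 genes, 1 member and 3 pathway genes. With no low-count filter the counts were 932 of 15973 genes, 1 member and 6 pathway genes. At an adjusted p under 0.01 they were 199 of 12572 genes, 0 members and 1 pathway gene. Leaving out each pair gave 126 of 12421 to 869 of 12478 genes, 0 to 2 members and 1 to 6 pathway genes. The lowest counts were without replicate 3 and the highest without replicate 2. Between occasions, with pairs left out, 6034 of 12478 genes (without replicate 2) to 8213 of 12316 (without replicate 1) passed, and 8 to 10 members. DESeq2 size factors, DESeq2 with the block, a minimum of 10 counts and the whole count table each called 1 member and 3 pathway genes between populations.

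Notch1 kept its direction in 11 of 11 alternatives and its call in 7, with adjusted p from 5.07e-09 to 1 by the tool of each. For every gene, the alternative of an adjusted p under 0.01 used the main fit, so no direction could change there. The fitted values of Notch2, Notch3, Notch4, Jag1 and Dll1 also kept their sign, over ranges of 0.05 to 0.09, 0.39 to 0.74, 0.09 to 0.38, 0.06 to 0.13 and -0.21 to -0.13. The sign turned for Nrarp in DESeq2 with the block (-0.0023) and without replicate 1 (pairs left out in turn, -0.13 to 0.088), and for Hey1 with the whole count table (-0.015) and without replicate 1 or 3 (-0.55 and -0.08, up to 0.50 without replicate 2). It turned without replicate 2 for Jag2 (-0.091, up to 0.37 without replicate 3) and Hes1 (-0.14, up to 0.24 without replicate 3). The cause was not tested. Counts were lowest for Hey1, at 1 to 42 per library, and Notch3, at 24 to 288.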
